A study of Mus musculus with 13 samples.

Results

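The circadian clock passes its rhythm to the rest of the transcriptome through a set of output regulators, and 9 of their genes were examined in mouse hearts: Dbp, Tef, Hlf, Nfil3, Ciart, Bhlhe40, Bhlhe41, Rora and Usp2. They were taken by symbol from a table of 55471 genes, in which each matched 1 Ensembl identifier, and all 9 were among the 15000 genes that passed the filter on low counts. The libraries came from whole hearts of 3 groups. WT control (n = 5) and R502W control (n = 4) were untreated, and R502W mavacamten (n = 4) received mavacamten, an inhibitor of the cardiac myosin motor, in the drinking water at 2.5 mg/kg/day for 21 weeks. R502W is a missense change in cardiac myosin-binding protein C, encoded by Mybpc3 and carried here as a knock-in according to the library names. The labels give no strain, sex or zygosity, and no hour at which each heart was collected. The design text put the mice at 24 weeks, whereas the RNA protocol spoke of hearts of 3 and 18 weeks. Each WT control library held 15420583 to 18218404 expected counts in total, each R502W control library 15350622 to 19361103 and each R502W mavacamten library 16001651 to 17520706. The labels do not say that each library was a separate mouse, so the tests below measure the spread between libraries, which may be technical. Where values below are given for a heart, 1 library is meant.

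In the mammalian clock, ARNTL (BMAL1) pairs with CLOCK or NPAS2, binds E-box elements and drives the genes of its own repressors, the PER and CRY proteins and the REV-ERB receptors. The same E-box drive reaches Dbp, whose product and its relatives TEF and HLF form the PAR bZIP family of activators at D-box elements, where NFIL3 acts as a repressor. REV-ERB repressors and ROR activators, RORα among them, compete at a further element that controls Arntl and Nfil3. In the heart muscle cell this clock is known to time parts of metabolism and electrical excitability.

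The promoter windows of RefSeq (GRCm38.p6, from 250 bases before to 50 bases after each annotated start) covered 8 of the 9 genes in 9 windows, 2 of them for Tef. They were searched on both strands for the E-box CACGTG and its variant CACGTT, for the D-box TTATGTAA and its variant TTACGTAA, and for the ROR element cores TAGGTCA and TGGGTCA. No match overlapped another. Ciart, Tef and Bhlhe41 held CACGTG, Nfil3 held TAGGTCA on the reverse strand, and the windows of Dbp, Hlf, Rora and Usp2 held no match. Of 32851 windows of the same length, 7.15% held CACGTG, 4.68% CACGTT, 0.94% TTATGTAA, 0.12% TTACGTAA, 2.61% TAGGTCA and 3.98% TGGGTCA. The Ciart window held 3 copies of CACGTG, and 29 of the 32851 windows (0.088%) held 3 or more. The stretches with a match are shown 5′ to 3′ on the strand of the gene with the match in capitals, because they belong to members of both directions of change described below. The Ciart stretch is chr3:95882259-95882358 (minus strand, bases -130 to -31 from the start), the Tef stretches are chr15:81802534-81802563 and chr15:81811264-81811293 (plus strand), that of Bhlhe41 is chr6:145865556-145865585 (minus) and that of Nfil3 is chr13:52981040-52981069 (minus). A match describes letters in a window and does not show that a factor binds there. Sites outside the windows were not searched, so a window without a match does not show that the gene lacks the element. The only Usp2 window (chr9:44084670-44084969) lies inside the annotated gene, whose start at 44067021 it does not cover.
Ciart: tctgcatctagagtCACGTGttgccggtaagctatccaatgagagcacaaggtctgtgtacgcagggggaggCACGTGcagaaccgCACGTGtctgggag
Tef, first window: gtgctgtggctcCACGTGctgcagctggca
Tef, second window: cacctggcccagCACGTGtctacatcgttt
Bhlhe41: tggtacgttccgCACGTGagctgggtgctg
Nfil3: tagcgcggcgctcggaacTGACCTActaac

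**Figure D1:**
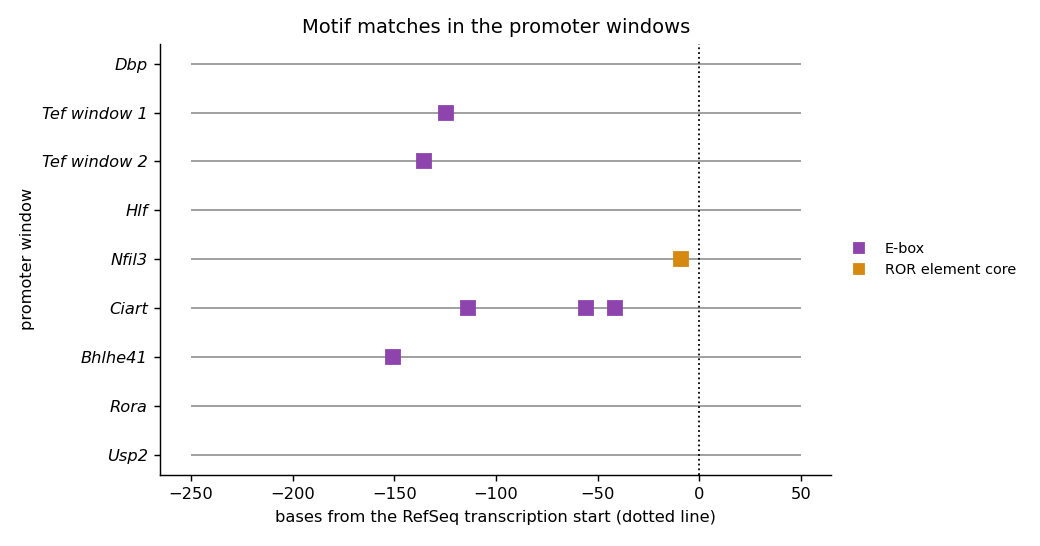
Positions of motif matches (squares) along each promoter window (grey lines, from 250 bases before to 50 bases after the RefSeq start, dotted). Ciart carries 3 E-box matches, Tef 1 in each of its 2 windows and Bhlhe41 1, while the single ROR element core lies just before the start of Nfil3.

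Libraries differed within groups in markers of other tissues. Bmp10, an atrial growth factor, was at 1.57 to 8.33 CPM in WT control replicate 3, R502W control replicate 1 and R502W mavacamten replicate 3 and at 307 to 672 CPM in the other 10 libraries. The other atrial markers varied less: within R502W control Nppa was at 2655 to 4950 CPM, Myl7 at 287 to 907, Myl4 at 379 to 1128 and Sln at 116 to 324. The fat gene Adipoq was at 70.7 to 99.5 CPM in WT control replicates 2 and 3, R502W control replicate 1 and R502W mavacamten replicate 4, and at 0.675 to 29.1 CPM elsewhere. The summed T cell and thymus markers reached 399 CPM in replicate 2 of WT control, against 6.88 CPM or less elsewhere. Heart muscle markers summed to 51937 to 76286 CPM in WT control, 69726 to 81317 CPM in R502W control and 66068 to 92517 CPM in R502W mavacamten. CPM stands for counts scaled to a common library size with TMM factors, as edgeR's cpm function gives them. In bulk RNA, fewer cells of a type and less RNA per cell cannot be told apart.

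The genotype comparison asked how hearts with the R502W change differ from WT hearts. Of the 9 genes, 7 were lower in R502W control and 1 was higher, at an edgeR quasi-likelihood adjusted p under 0.05 over 15000 genes. Ciart fell most, followed by Dbp and Hlf, and Nfil3 rose, so the activators and the repressor of the D-box moved in opposite directions. Rora alone was not called. Over all genes tested, 12.4% were called, 3.75% lower and 8.63% higher. The 9 genes were chosen with earlier results of these data known, so they are not an independent draw from all genes. DESeq2 called 8 of the 9 genes and 15.9% of all genes it tested. The median log2 fold change was -0.72 over the 9 genes and -0.01 over all 15000. In 7 of the 9 genes the libraries of the 2 groups did not overlap, 6 lower and 1 higher, where 5.45% and 12.3% of all genes tested did so. The hour of collection is not labelled, so a difference in hour between the groups cannot be told apart from one of genotype. Its part in the differences reported here was not tested.

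Dbp encodes a PAR bZIP activator and lies on chromosome 7 (45705088 to 45710203, GRCm38, plus strand). It stood at 184, 191, 153, 185 and 204 CPM in WT control replicates 1 to 5. In R502W control replicates 1 to 4 it was at 37.4, 32.5, 33.2 and 58.2 CPM. In R502W mavacamten it was at 45.0, 52.7, 38.2 and 30.7 CPM. The lowest WT heart was thus well above the highest of the 8 R502W hearts, treated or not. Between R502W control and WT control the log2 fold change was -2.18 ± 0.19 (SE), a 4.54-fold lower level (edgeR adjusted p = 3.33e-05) and the 95th most negative value of 15000 genes. Dbp shares 539 exonic bases with Sphk2, a sphingosine kinase gene on the opposite strand, and the sources used here do not say whether reads were counted by strand. Sphk2 went the other way, from 15.6 ± 1.19 to 20.9 ± 1.30 CPM (log2 0.42 ± 0.08, edgeR adjusted p = 0.0045). Bhlhe41 shares 1280 exonic bases with Gm43909, also on the opposite strand, which held 242 counts over 13 libraries against 6934 for Bhlhe41 and stood at a log2 difference of -0.82 ± 0.53 (not called). The lowest and highest expected counts of each group were fractional for Dbp and Bhlhe41 and whole for the other members. In WT control they were 2506.45 and 3526.48 for Dbp and 586.08 and 838.63 for Bhlhe41. The part of shared reads in these levels was not tested.

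Tef encodes the thyrotroph embryonic factor, a further PAR bZIP activator (chromosome 15, 81802421 to 81826863, plus strand). Its values were 204, 182, 173, 208 and 214 CPM in WT control, 109, 116, 124 and 127 CPM in R502W control, and 109, 110, 113 and 90.0 CPM in R502W mavacamten. All R502W hearts were below all WT hearts, by a smaller margin than for Dbp. The fall was 1.65-fold (log2 -0.72 ± 0.09, edgeR adjusted p = 0.000446).

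Hlf, the hepatic leukemia factor gene (chromosome 11, 90336536 to 90390895, minus strand), completes the PAR bZIP trio. It was at 55.1, 31.0, 42.7, 52.1 and 51.7 CPM in WT control, at 22.3, 19.9, 17.5 and 22.2 CPM in R502W control, and at 21.9, 18.9, 23.0 and 19.5 CPM in R502W mavacamten. WT control replicate 2, the heart with T cell and thymus transcripts, was the lowest WT value and still lay above every R502W heart. The fall was 2.27-fold (log2 -1.18 ± 0.15, edgeR adjusted p = 0.000451).

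Nfil3 encodes the bZIP repressor that occupies the same D-box elements (chromosome 13, 52967209 to 52981073, minus strand). It was at 3.08, 3.24, 3.32, 3.46 and 4.10 CPM in WT control. In R502W control it was at 11.3, 11.6, 16.3 and 11.6 CPM, with replicate 3 above the others. In R502W mavacamten it was at 11.1, 7.85, 10.3 and 10.2 CPM. The rise from WT control to R502W control was 3.68-fold (log2 1.88 ± 0.15, edgeR adjusted p = 2.55e-05) and ranked 51st among the rises. The WT values rest on 42 to 66 expected counts per library.

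The balance of activator and repressor RNA was read within each library as a ratio of expected counts, which no library scaling can change. The ratios were not corrected for transcript length, and protein was not measured. Dbp exceeded Nfil3 by 46.0 to 59.7 times in WT control, by 2.04 to 5.01 times in R502W control and by 3.00 to 6.71 times in R502W mavacamten. The untreated and treated R502W ratios overlapped and lay far below WT. Within the PAR bZIP trio the falls were unequal, since the ratio of Dbp to Tef was 0.884 to 1.05 in WT control, 0.269 to 0.460 in R502W control and 0.338 to 0.481 in R502W mavacamten. The ratio of Dbp to Hlf was 3.34 to 6.17, 1.63 to 2.62 and 1.57 to 2.79 in the same order. These ratios combine genes already described and carry no test of their own.

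**Figure D2:**
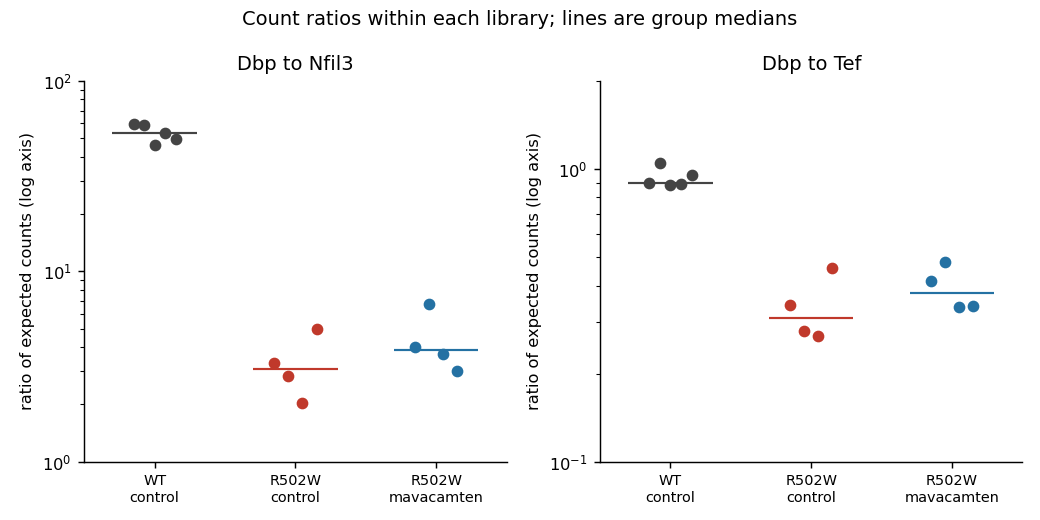
Ratio of expected counts of Dbp to Nfil3 (left) and of Dbp to Tef (right) in each library (points), by group, on log axes, with lines at the group medians. The WT control medians of 53.4 and 0.900 stand above those of R502W control (3.06 and 0.311) and R502W mavacamten (3.87 and 0.377), and no WT control library overlaps an R502W library.

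Ciart encodes CHRONO, a repressor of the CLOCK and BMAL1 complex (chromosome 3, 95878503 to 95882251, minus strand), and its promoter window holds the 3 E-box copies printed above. It was at 21.3, 14.9, 11.0, 16.7 and 16.3 CPM in WT control. In R502W control it was at 2.09, 1.56, 1.86 and 3.16 CPM, and in R502W mavacamten at 2.53, 1.87, 2.12 and 1.89 CPM. Every R502W heart was below every WT heart. The fall was 7.36-fold (log2 -2.88 ± 0.23, edgeR adjusted p = 2.55e-05) and ranked 63rd among the falls. The R502W control values rest on 28 to 61 expected counts per library.

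Bhlhe40 and Bhlhe41 encode DEC1 and DEC2, repressors that bind E-box elements. Bhlhe41 (chromosome 6, 145858243 to 145865558, minus strand) was between 36.5 and 52.8 CPM in WT control, between 21.6 and 27.9 CPM in R502W control and between 19.4 and 29.6 CPM in R502W mavacamten. It fell 1.74-fold in R502W control without overlap (log2 -0.80 ± 0.13, edgeR adjusted p = 0.00231). Bhlhe40 (chromosome 6, 108660629 to 108666925, plus strand) was between 56.3 and 80.4 CPM in WT control, between 46.3 and 62.4 CPM in R502W control and between 41.4 and 60.8 CPM in R502W mavacamten. Its groups overlapped, since WT control replicate 2 at 56.3 CPM lay below R502W control replicate 4 at 62.4 CPM. The fall of 1.40-fold (log2 -0.48 ± 0.14, edgeR adjusted p = 0.0341) was no longer called when WT control replicate 1, 3, 4 or 5 was left out (-0.49, -0.46, -0.48 and -0.45), nor when R502W control replicate 1, 2 or 3 was (-0.43, -0.46 and -0.49). It was also lost (-0.43) without the 3 hearts low in Bmp10.

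Usp2 encodes a deubiquitinating enzyme and is a clock-controlled gene in many tissues (chromosome 9, 44067021 to 44095627, plus strand). It was at 114, 80.9, 79.0, 105 and 116 CPM in WT control, at 51.0, 51.2, 68.3 and 78.8 CPM in R502W control, and at 54.9, 74.2, 75.1 and 55.1 CPM in R502W mavacamten. The groups met without overlapping, since the lowest WT heart was at 79.0 CPM and the highest R502W control heart at 78.8 CPM. The fall was 1.59-fold (log2 -0.67 ± 0.17, edgeR adjusted p = 0.0219) and was no longer called when R502W control replicate 1 or 2 was left out (-0.58 and -0.61), or the 3 hearts low in Bmp10 (-0.68).

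Rora, the nuclear receptor that activates through ROR elements, spans 68653786 to 69388246 on chromosome 9 (plus strand). It was at 26.3, 13.4, 25.1, 29.8 and 28.0 CPM in WT control, at 32.1, 28.1, 27.1 and 27.0 CPM in R502W control, and at 27.0, 27.5, 33.7 and 27.9 CPM in R502W mavacamten. The groups overlapped, and 1 WT heart, replicate 2, was far below the rest. The log2 difference was 0.22 ± 0.17 with a 95% interval from -0.15 to 0.60 (edgeR adjusted p = 0.432). Without WT control replicate 2 it was 0.03 ± 0.09, and with the length trend of each library removed it was -0.05 ± 0.12.

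**Figure D3:**
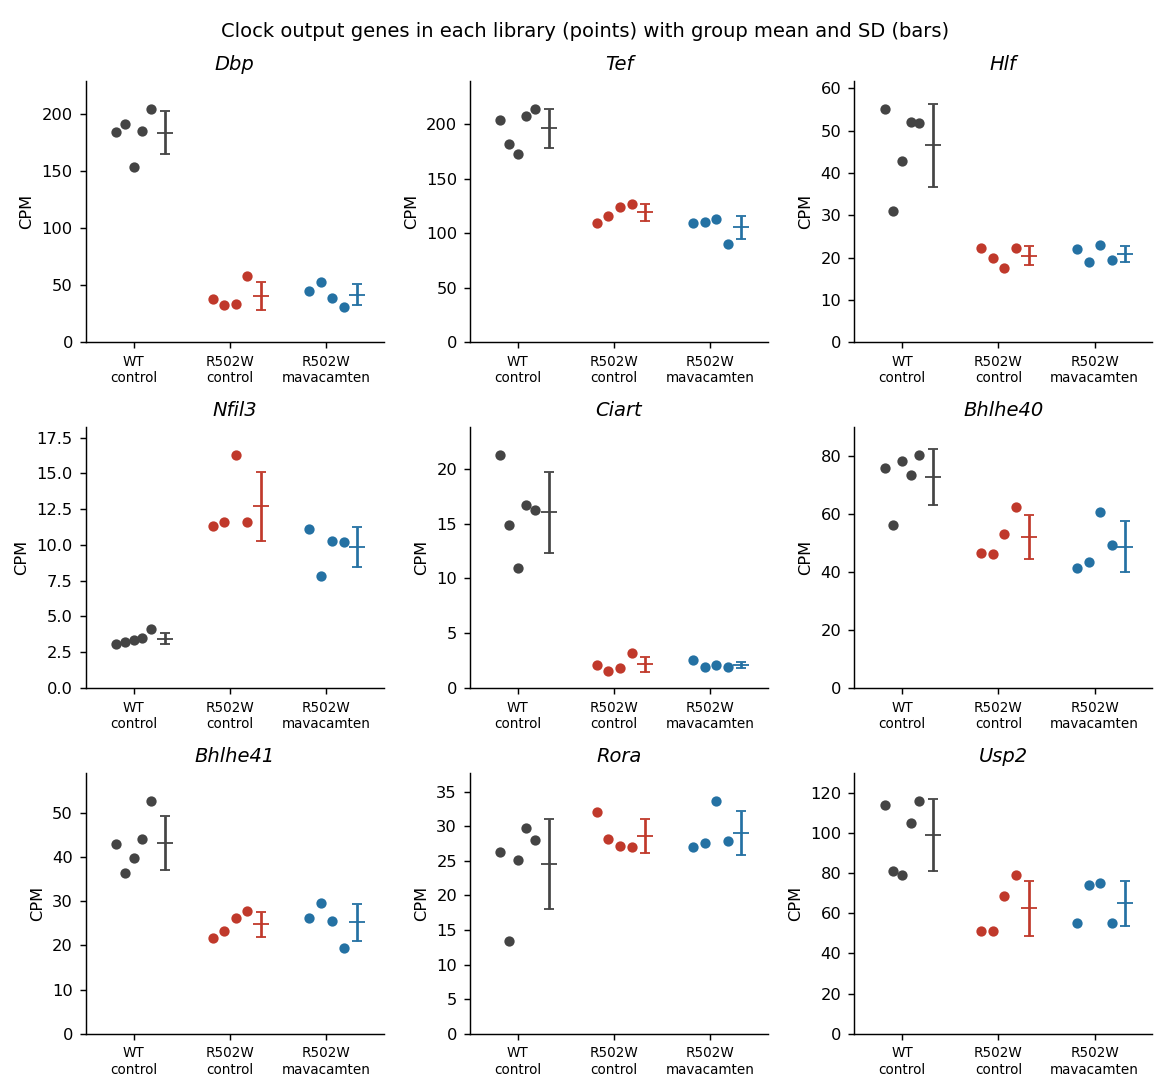
Level of each of the 9 genes in CPM (vertical axes from 0) in every library (points) of the 3 groups, with the group mean and SD beside the points. Dbp, Tef, Hlf, Ciart, Bhlhe41 and Usp2 are lower, and Nfil3 is higher, in every R502W control heart than in every WT control heart.

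The order of the genes by level differed between WT control and R502W hearts. Per kilobase of annotated exons, Dbp led in WT control at 61.2 ± 6.28 CPM per kb (SD, n = 5), apart from Tef at 24.9 ± 2.27, whose values overlapped those of Usp2 at 20.5 ± 3.70. Nfil3 was last at 1.70 ± 0.194, overlapping Rora at 1.88 ± 0.493. The length used was that of all annotated exons merged (2993 bases for Dbp, 7867 for Tef and 13071 for Rora). It may exceed that of the transcript made in the heart, so the order between genes depends on the annotation. In R502W control (n = 4), Tef (15.1 ± 0.990), Dbp (13.5 ± 4.04), Usp2 (12.9 ± 2.84) and Bhlhe40 (11.1 ± 1.61 CPM per kb) overlapped their neighbours in the order. Nfil3 came next at 6.26 ± 1.18, apart from both neighbours, and Ciart was last at 0.958 ± 0.308. In R502W mavacamten (n = 4) Dbp, Usp2, Tef and Bhlhe40 again led (13.9, 13.5, 13.4 and 10.4 CPM per kb), Nfil3 was at 4.88 ± 0.700 and Ciart was last at 0.931 ± 0.136.

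Mavacamten was compared with no treatment within R502W hearts. None of the 9 genes was called, and neither was any of the 15000 (0% called; edgeR adjusted p = 1 for each of the 9). At an unadjusted p under 0.05 there was 1 of the 9 genes, against 3.5% of all genes tested. DESeq2 called none of the 9 and 6 genes in all (0.0227%). Groups did not overlap for 1 gene, Nfil3, lower in all 4 treated hearts than in all 4 untreated ones, which 1.58% of all genes tested were, while 1.29% were higher without overlap. Its log2 difference was -0.36 ± 0.15, with a 95% interval from -0.68 to -0.03, and it was -0.22 without R502W control replicate 3 and -0.25 without R502W mavacamten replicate 2.

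For the other 8 genes the treated and untreated R502W hearts overlapped. The difference was 0.05 for Dbp with a 95% interval from -0.36 to 0.46, and -0.04 for Ciart with an interval from -0.57 to 0.48. For Hlf it was 0.03, from -0.31 to 0.36. Tef was the furthest below at -0.18, from -0.38 to 0.03. Bhlhe40, Bhlhe41, Rora and Usp2 stood at -0.10, 0.02, 0.02 and 0.06, and the outer bounds of their intervals were -0.40 and 0.43. A shift of Dbp by the size of its genotype difference lies outside its treatment interval.

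Treated R502W hearts were also set against WT control, a comparison that shares its libraries with both others. Again 7 of the 9 genes were lower and 1 was higher, where 8.21% of all genes tested were called, 2.29% lower and 5.93% higher. At an unadjusted p under 0.05 it was 25.8% of all genes. In 6 genes every treated heart lay below every WT heart and in Nfil3 above, as 3.79% and 8.54% of all genes did. Ciart was at -2.92 ± 0.23, Dbp at -2.14 ± 0.19, Hlf at -1.16 ± 0.15 and Tef at -0.90 ± 0.09 on the log2 scale. Nfil3 was 2.87-fold higher (1.52 ± 0.15). Bhlhe41 was at -0.78 ± 0.13, Bhlhe40 at -0.58 ± 0.14 and Usp2 at -0.61 ± 0.17 (edgeR adjusted p = 0.00627, 0.0246 and 0.0419). Rora was at 0.24, with a 95% interval from -0.13 to 0.62.

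The weaker of these calls depended on single hearts and on the fit. With only these 2 groups in the fit, Bhlhe40 (-0.61) and Usp2 (-0.64) were no longer called. Usp2 was not called when WT control replicate 1, 4 or 5 was left out (-0.57, -0.59 and -0.55), R502W control replicate 1 or 3 (-0.61 each), or any 1 of R502W mavacamten replicates 1 to 4 (-0.57, -0.70, -0.71 and -0.57). Bhlhe40 lost its call without R502W mavacamten replicates 1 or 2 (-0.54 and -0.55). Without the 3 hearts low in Bmp10, which leaves 3 treated hearts and 4 WT hearts, 5 of the 9 genes stayed called, and Bhlhe40, Bhlhe41 and Usp2 did not.

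**Figure D4:**
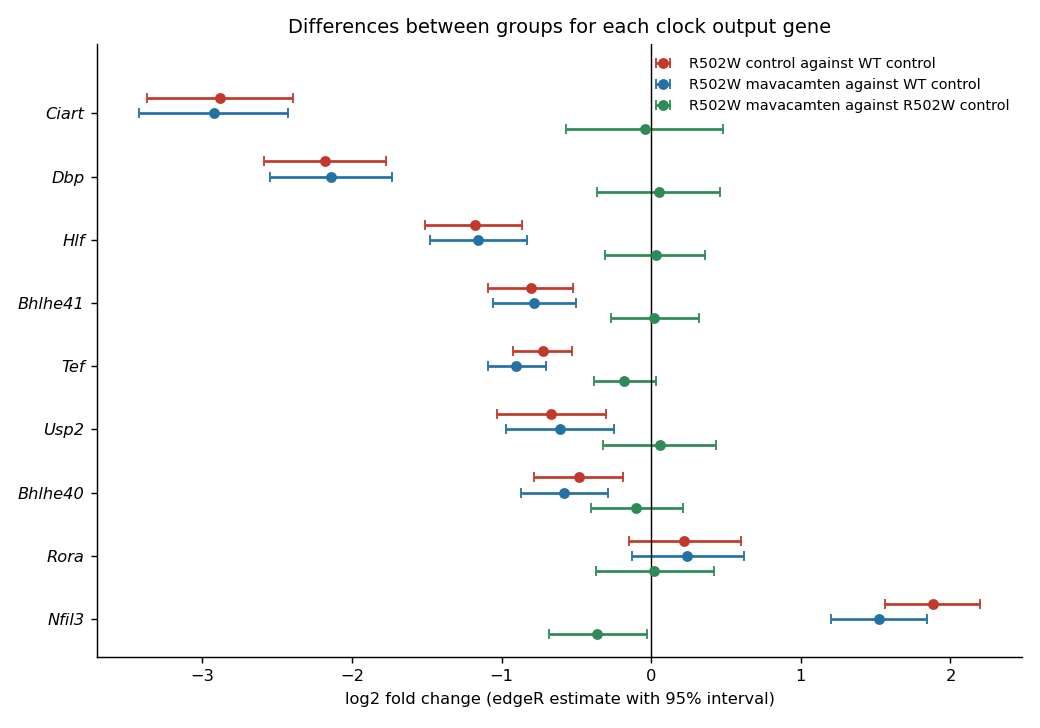
Log2 fold change of each gene (points, edgeR estimate) with its 95% interval (bars) for the 3 comparisons. R502W control against WT control and R502W mavacamten against WT control run from about -2.88 and -2.92 for Ciart to 1.88 and 1.52 for Nfil3, while the values of treated against untreated R502W hearts lie near 0, and only the interval for Nfil3 leaves 0 out.

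Hearts of 1 group also differed from each other in these genes. The SD of log2 CPM within groups was 0.30 for Dbp, larger than for 90.6% of the 500 genes nearest in level, whose median was 0.14. It was 0.31 for Rora (91.2%), 0.28 for Usp2 (89.6%) and 0.24 for Hlf (85.0%), while Tef at 0.13 and Nfil3 at 0.21 exceeded 29.6% and 32.2% of their neighbours in level. For Rora and Hlf the library furthest from its group mean was WT control replicate 2 (log2 -0.81 and -0.56). That heart also held the T cell and thymus transcripts. R502W control replicate 4 had the highest value of its group in Dbp, Ciart, Usp2, Tef, Bhlhe40 and Bhlhe41. Its Dbp and Ciart levels were each 0.57 above the group mean on the log2 scale, its Usp2 level was 0.36 above, and its Arntl level was 0.35 below (log2 -0.35). Other clock genes of that library stood nearer to the group mean: Npas2 at 0.0, Nr1d1 at -0.13, Nr1d2 at 0.16, Per2 at 0.21 and Per3 at 0.12. WT control replicate 3 had the lowest value of its group in Dbp, Tef, Ciart and Usp2. Without R502W control replicate 4 the log2 fold change between R502W control and WT control was -2.41 for Dbp and -3.12 for Ciart, the most negative of the 13 left-out values in each.

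Likeness of pattern was measured as the root mean square difference of log2 CPM, centred on each gene's mean, over 13 libraries and 13696 genes. This measure includes the differences between groups already described, so genes with a like difference between R502W and WT hearts come out near each other. Only genes with an SD of at least 0.5 over all libraries were used as a starting point, which left Dbp, Hlf, Nfil3 and Ciart. The profiles nearest to Dbp were those of Ciart (0.39), Per2 (0.43) and the predicted gene Gm5790 (0.51), and those nearest to Ciart were Dbp (0.39), Per2 (0.61) and Per1 (0.71). Nearest to Hlf were Per3 (0.13), Tef (0.26) and Coq10b (0.27), a gene of coenzyme Q handling. Nearest to Nfil3 were Adam19 (0.25), Ankrd23 (0.25) and Myot (0.26), which encode a membrane protease and 2 proteins of the muscle sarcomere. Between R502W control and WT control their log2 fold changes were 1.68, 1.55 and 1.96, beside 1.88 for Nfil3. Those of Per3, Tef and Coq10b were -1.15, -0.72 and -0.92, beside -1.18 for Hlf. Ciart, Per2 and Gm5790 stood at -2.88, -1.65 and -1.74, beside -2.18 for Dbp. Ankrd23 went from 237 CPM in WT control to 695 CPM in R502W control and 489 CPM in R502W mavacamten.

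The genes of the core loop give the background for the outputs. Of 17 listed genes, 3 rose and 6 fell in R502W control, with a median of 0.02. Over all genes tested, 8.63% rose and 3.75% fell. The 3 that rose were the activators: Arntl went from 3.84 ± 2.06 to 20.8 ± 3.55 CPM (log2 2.43 ± 0.28), Npas2 by 1.69 ± 0.23 and Clock by 1.00 ± 0.16. The repressors Per1, Per2, Per3 and Cry2 had log2 values of -1.56, -1.65, -1.15 and -0.48, and the REV-ERB genes Nr1d1 and Nr1d2 had -0.48 and -0.57. Cry1 stood at 0.02 and was not called. None of the 17 was called between treated and untreated R502W hearts by edgeR or DESeq2. An unadjusted p under 0.05 was found for 0 of them, against 3.5% of all genes tested. Against WT control, 4 were higher and 6 lower in treated hearts, where 5.93% and 2.29% of all genes tested were. Without the 3 hearts low in Bmp10 the number called was 5.

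**Figure D5:**
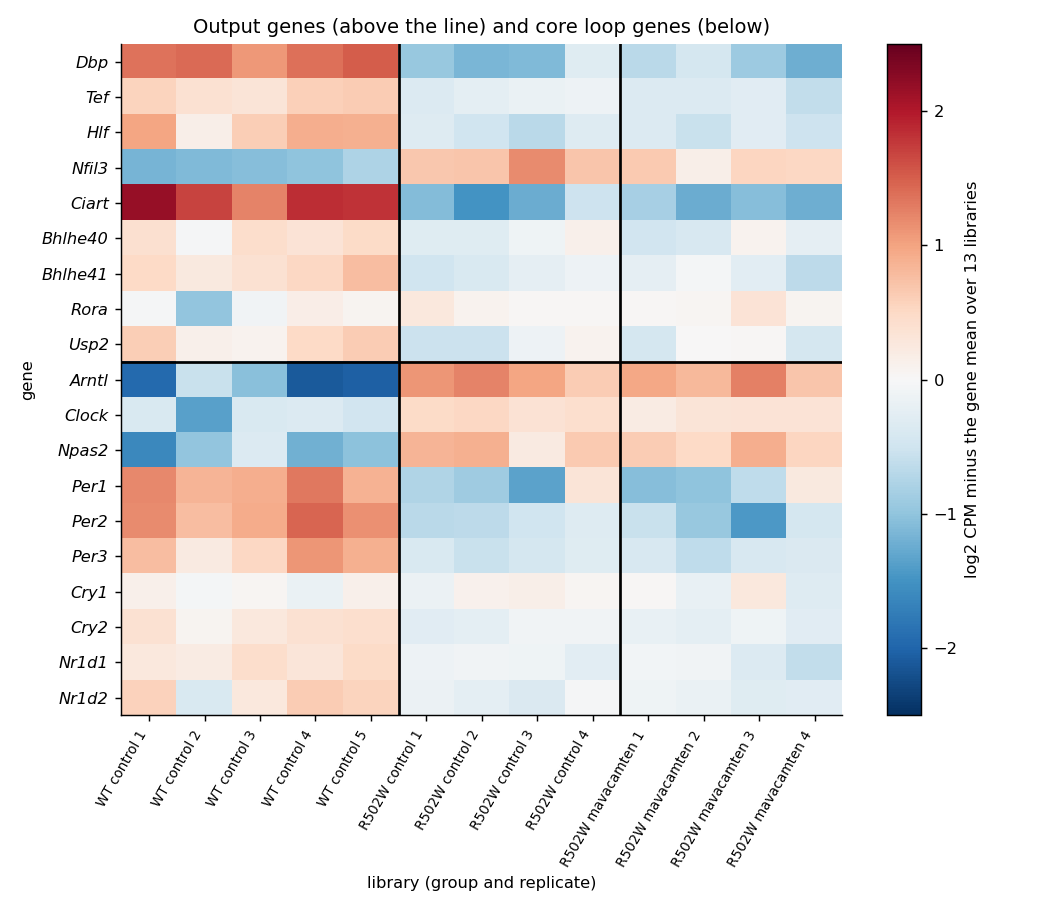
Log2 CPM of the 9 output genes (above the line) and 10 core loop genes (below) in each of the 13 libraries, as the difference from each gene's mean (colour scale, red above and blue below). Dbp and Ciart are red in all WT control hearts and blue in all R502W hearts, and Arntl, Npas2 and Nfil3 show the reverse.

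Genes further down the clock moved unevenly. Of 15 other clock-controlled genes, 3 rose and 2 fell in R502W control (median -0.10), where 8.63% and 3.75% of all genes tested did. Leo1, of the transcription elongation complex PAF1, rose by 1.11 ± 0.10, Cdkn1a, the cell cycle inhibitor p21, by 1.21 ± 0.18 and Lonrf3 by 1.58 ± 0.39. The tetraspanin gene Tspan4 had a log2 value of -1.27 ± 0.15 and the cell cycle kinase gene Wee1 -0.72 ± 0.20. Dgat2, of triglyceride synthesis, stood at -0.37 and did not pass. The number called was 3 without R502W control replicates 2 or 3. The cardiac clock output genes Klf15 (-0.26, edgeR adjusted p = 0.0988) and Kcnip2 (-0.14, edgeR adjusted p = 0.601) did not pass. In treated hearts against WT control 2 rose and 1 fell, where 5.93% and 2.29% of all genes tested did. Without WT control replicate 2, 5 were called.

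Genes reported to be driven by PAR bZIP factors in other tissues were also examined. Of 8 listed, 6 passed the filter on low counts (median of the 6, -0.33 between R502W control and WT control). In that comparison 1 was called, Cyp2a5, a detoxifying cytochrome, against 12.4% of all genes tested. At an unadjusted p under 0.05 there were 3 of the 6, against 29.1% of all genes tested. Cyp2a5 was at 55.0 and 96.2 CPM in WT control replicates 2 and 3 and at most 0.66 CPM in the other WT hearts, and the airway gene Cyp2f2 was at 107 and 207 CPM in these 2 libraries and at most 1.63 CPM in the other WT hearts. The part of airway tissue in that fall was not tested. The call was lost without WT control replicate 3 or any 1 of R502W control replicates 1 to 4, and 2 genes of the list were called without WT control replicate 1. Ppara, the nuclear receptor of fatty acid oxidation, was at 16.0, 2.10, 20.2, 15.9 and 17.5 CPM in WT control and at 36.4, 27.0, 36.0 and 28.0 CPM in R502W control. Its groups did not overlap, WT control replicate 2 was far below the rest, and the log2 difference of 1.15 ± 0.40 did not pass (edgeR adjusted p = 0.0755). It was 1.17 ± 0.40 in treated hearts against WT control. Alas1, of heme synthesis, had a log2 value of 0.29 and the cytochrome gene Cyp2b10 -0.97, and neither passed. Pdxk, the kinase of vitamin B6, had a log2 value of -0.15, and Por, the electron donor of cytochromes, had -0.51, and neither passed (edgeR adjusted p = 0.341 and 0.0776). In treated hearts against WT control none was called by edgeR or DESeq2. An unadjusted p under 0.05 was found for 4, against 25.8% of all genes tested, and 1 was called without WT control replicate 2.

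Of 4 tested bZIP genes of the C/EBP type, which bind related elements, none was called in any of the 3 comparisons by edgeR or DESeq2. At an unadjusted p under 0.05 there was 1 of 4, Cebpg at a log2 difference of 0.31 ± 0.12, between R502W control and WT control, where 29.1% of all genes were, and 0 in each of the others, and 1 was called between R502W control and WT control when only those 2 groups were fitted. Among 13 glucocorticoid-responsive genes, which also follow a daily rhythm, 2 rose and 2 fell in R502W control (median -0.17). Over all genes tested, 8.63% rose and 3.75% fell. Cdkn1a and the stress-induced Ddit4 (0.77 ± 0.20) rose, and Per1 and the metallothionein gene Mt2 (-0.74 ± 0.21) fell. The lists share genes. Cdkn1a, Tsc22d3 and Klf9 here, and Alas1 and Por above, are also among the other clock-controlled genes. Per1 is also in the core loop, so the calls of Cdkn1a and Per1 are counted again here. The number called was 2 when WT control replicate 3, or R502W control replicate 2 or 4, was left out. The zinc finger gene Zbtb16 stood at 0.58 ± 0.27 and did not pass. Tsc22d3, Fkbp5 and Klf9, direct targets of the glucocorticoid receptor, had log2 values of -0.28, -0.35 and -0.10 and did not pass. In treated hearts 1 rose and 2 fell against WT control, where 5.93% and 2.29% of all genes tested did. Without R502W mavacamten replicate 2, 1 was called.

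Some markers of other cell types also differed between R502W control and WT control. Of 5 endothelial markers, Kdr and Cldn5 rose in R502W control, and the summed list was at 472 to 634 CPM in WT control, 723 to 855 CPM in R502W control and 551 to 764 CPM in R502W mavacamten. Col1a1 of 5 fibroblast, Cspg4 of 5 mural and Ryr2 of 9 heart muscle markers rose too. Cd79b of 4 B cell, Sox10 of 3 Schwann and both tested airway markers fell, and the summed airway list lay between 1.39 and 562 CPM in WT control against 0.281 to 1.45 CPM in R502W control. No atrial, T cell, macrophage, adipocyte, mesothelial or erythroid marker was called in that comparison. Without the 4 hearts high in Adipoq, 8 output genes were called between R502W control and WT control. Those 4 include WT control replicate 2 and both hearts with airway transcripts in WT control. Without the 3 hearts low in Bmp10, Bhlhe40 and Usp2 were no longer called in that comparison. The part of these cell types in the differences of the clock output genes was not tested.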

How the data were processed

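Whole-heart RNA was sequenced as strand-specific poly(A) libraries, per the labels' protocols. The authors deposited 1 table of expected counts per gene for 13 libraries. The submitters' processing notes name cutadapt, FastQC, RSEM and DESeq2, without versions, and the build GRCm38, and the table's name carries Ensembl release 99. The sources used here do not give the strand setting of the counting. Of 55471 gene identifiers, 55144 matched a symbol, and 5.8% of the deposited expected counts were fractional and were rounded to whole numbers.

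Genes were kept by edgeR's filter (minimum count 10, minimum total 15), scaled by TMM and fitted over all 3 groups with edgeR's quasi-likelihood test (edgeR 4.0.16, R 4.3.3), with Benjamini-Hochberg adjustment over 15000 genes and a threshold of 0.05. The 3 comparisons share libraries. Log2 CPM used a prior count of 2. The script was tested on simulated data. Exon lengths and positions came from GENCODE on GRCm38, and promoters from RefSeq on GRCm38.p6. Total counts per library limit the precision of low genes, and no 2 libraries of a group agreed within sampling noise. Alternatives were RLE scaling, no filter, DESeq2 1.42.0, a replicate block, removal of each library's length trend, fits of only the 2 groups compared, and leaving out single libraries, the 3 low in Bmp10 or the 4 high in Adipoq.

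The genes and lists were chosen with earlier results of these data known. Named were the 9 genes in every comparison, up to 6 genes of each pathway list with the smallest p between R502W control and WT control, the 3 profiles nearest to each gene with an SD of at least 0.5, and the summed marker lists. Sphk2, Klf15, Kcnip2, Pdxk, Por, Cry1, Nr1d1, Nr1d2, Tsc22d3, Fkbp5, Klf9, Cyp2f2, Bmp10, Adipoq and the single markers that passed, where outside that rule, were chosen after their values were seen.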

Additional observations from a re-analysis of the deposited data

Results flagged for a closer look

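A single library stood apart from its group, by Dixon's 95% critical value, in 4 of 42 groups of values examined, and chance flags about 1 in 20 such groups. Nfil3 was at 16.3 CPM in R502W control replicate 3, where the nearest other library of the group was at 11.6 CPM. Rora was at 33.7 CPM in R502W mavacamten replicate 3, with the nearest other library at 27.9 CPM. The ratio of Dbp to Hlf counts was 6.17 in WT control replicate 2, with the next at 3.94, and Hlf was at 31.0 CPM in that heart, its lowest WT value. The ratio of Dbp to Arntl counts was 3.62 in R502W control replicate 4, with the next at 1.69, against 27.4 to 85.2 in WT control.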

How the results depend on the processing

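Dbp, Tef, Hlf, Nfil3 and Ciart kept their direction and call in both comparisons with WT control under every alternative run, and no called gene of the 9 changed sign. Between R502W control and WT control 6 to 8 of the 9 genes were called with single libraries left out, and likewise 6 to 8 in R502W mavacamten against WT control, where 5 were called without the 3 hearts low in Bmp10. The replicate numbers did not pair the libraries: deviations of same-numbered libraries correlated at -0.323 to 0.253 over 12 pairs, 1 of them over 0.1, and 0 of 13 libraries correlated best with their own number. With the replicate block 7 of the 9 genes were called in each comparison with WT control and 0 between treated and untreated R502W hearts, and Usp2 lost its call (-0.62 and -0.54). With only the 2 groups compared in the fit, 6 of the 9 genes were called in R502W mavacamten against WT control.

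In the lists, between R502W control and WT control, DESeq2 called 8 other clock-controlled genes and 2 PAR bZIP targets. PAR bZIP targets called were 0 with the replicate block, with the block and the length trend removed, with only the 2 groups and without the hearts low in Bmp10, and 0 to 2 with single libraries left out. Glucocorticoid-responsive genes called were 2 with the block and without the hearts low in Bmp10, and 2 to 4 with single libraries left out. Other clock-controlled genes called were 3 to 7 with single libraries left out, and 1 C/EBP-type gene was called with only the 2 groups. In R502W mavacamten against WT control, other clock-controlled genes called were 6 by DESeq2, 5 without the hearts high in Adipoq and 3 to 5 with single libraries left out. Glucocorticoid-responsive genes called were 1 with the block, with the block and the length trend removed and without the hearts low in Bmp10, and 1 to 4 with single libraries left out. PAR bZIP targets called were 1 without the hearts high in Adipoq and 0 to 1 with single libraries left out, and 5 core loop genes were called without the hearts low in Bmp10. The cause was not tested.

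Over all genes, the 1856 called between R502W control and WT control became 404 without the hearts low in Bmp10, 1145 without those high in Adipoq, 963 with the replicate block, 631 with the block and the length trend removed, and 866 to 1870 with single libraries left out. For R502W mavacamten against WT control, 1232 became 86, 653, 349, 165 and 359 to 1213 in the same order, 632 with the length trend removed, 740 without a filter and 216 with only the 2 groups. The low counts of Ciart in R502W hearts and of Nfil3 in WT hearts limit the precision of their levels.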
